A study of Homo sapiens with 6 samples.

Results

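The S100 proteins and the annexins, both families of calcium-regulated proteins, were described here in TPC-1 cells with and without overexpression of *RRM2*. Members were the protein-coding genes whose symbol begins with S100A or ANXA followed by a number, together with *S100B*, *S100P*, *S100G* and *S100Z*. This gave 35 of the 58735 genes of the table, of which 21 are S100 genes, 13 are annexin genes and 1 is *ANXA2R*, the annexin A2 receptor, which is no annexin itself. The TPC-1 line was established from a papillary carcinoma of the human thyroid. Libraries 1 to 3 of the wild strain, called TPC-1 below, were compared with libraries 1 to 3 of the overexpressing strain, called *RRM2*-OE-TPC-1, to ask how *RRM2* overexpression changes the mRNA of these cells. The labels call them biological triplicates. *RRM2*-OE-TPC-1 cells were infected with a lentivirus in which a CMV promoter drives full-length *RRM2*, and were then selected with puromycin, and whether they are 1 clone is not stated. For the TPC-1 libraries neither an empty vector nor puromycin is mentioned, so infection, selection and *RRM2* cannot be told apart. In the genotype field libraries 2 and 3 of *RRM2*-OE-TPC-1 are given as overexpressing RRM3 and RRM4, against *RRM2* in their titles.

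S100 proteins are small proteins with paired EF-hand loops that mostly form dimers, open a binding face when they take up calcium, and so act on other proteins rather than by catalysis. Annexins bind calcium and the acidic lipids of membranes at once, and several of them carry an S100 partner: S100A10 joins annexin A2 at the cell surface, where the pair can bind plasminogen, and S100A11 joins annexin A1. Outside the cell, S100A8, S100A9, S100A4 and other members act on receptors such as RAGE, and several members, among them S100A4, S100A6, S100A10, S100A11 and annexin A1, have been studied in papillary thyroid carcinoma.

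Each library held between 14317091 and 17084067 reads on genes. *RRM2* itself measured 9.17, 9.05 and 8.52 FPKM (fragments scaled to gene length and sequencing depth) in TPC-1 and 50.4, 47.5 and 47.2 FPKM in *RRM2*-OE-TPC-1, a log2 fold change of 2.43 (limma, adjusted p = 1.11e-08), so that every library matched the strain of its title. Of 7 thyrocyte markers, *PAX8* led at a mean of 69.3 FPKM in TPC-1 and 58.5 FPKM in *RRM2*-OE-TPC-1, whereas *TG*, *TSHR* and *SLC5A5* were near 0 and *NKX2-1* was at 0 in every library. The thyrocyte markers summed to 71.7 to 75.4 FPKM in TPC-1 and 59.7 to 63.1 FPKM in *RRM2*-OE-TPC-1. The 6 epithelial markers summed to 42.9 to 47.1 FPKM in TPC-1 and 88.4 to 90.8 FPKM in *RRM2*-OE-TPC-1. Nearly all of that sum and of its change came from *KRT18*, at means of 41.2 and 85.2 FPKM. *KRT8* was higher in *RRM2*-OE-TPC-1, at 2.56 and 3.48 FPKM, whereas *KRT7* was at 1.18 and 1.01 FPKM (limma, adjusted p = 0.169). The others were near 0, with *CDH1* lower and *EPCAM* and *KRT19* higher in *RRM2*-OE-TPC-1. The part of either list in the results below was not tested. In such bulk samples, fewer cells of a type and less RNA per cell cannot be told apart.

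Of the 35 members, 20 were expressed enough to be tested, that is, with at least 0.5 FPKM and 10 reads in 3 libraries. Differences are given as log2 fold changes of *RRM2*-OE-TPC-1 over TPC-1 on log2(FPKM + 0.1), with the standard error and the adjusted p of limma over all 13621 tested genes. At an adjusted p of 0.05 or less, 12 members rose, 7 fell and 1 did not pass. Over all tested genes, 34.9% rose and 32.7% fell by the same rule. When a log2 fold change of at least 1 in size was asked for as well, *ANXA8L1* was higher and *S100A6* and *S100A4* were lower. These are 1 and 2 of the 20 tested members, against 4.48% of all tested genes higher and 6.97% lower, so the counts alone do not set the members apart. *ANXA8L1* reached the minimum through *RRM2*-OE-TPC-1 alone, the group where it is high, so the count of 1 higher is no support for a rise among members. The groups of libraries did not overlap for 19 of the 20 tested members and for 72.2% of all tested genes. The median log2 fold change was 0.22 over the tested members and 0.011 over all tested genes. Among the 9 tested S100 genes 4 rose and 4 fell, with a median of 0.042, and among the 11 tested annexins 8 rose and 3 fell, with a median of 0.31. *ANXA8L1* is also among the 12 members and the 8 annexins that rose, and enters the medians of both, with the same limit.

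**Figure D1:**
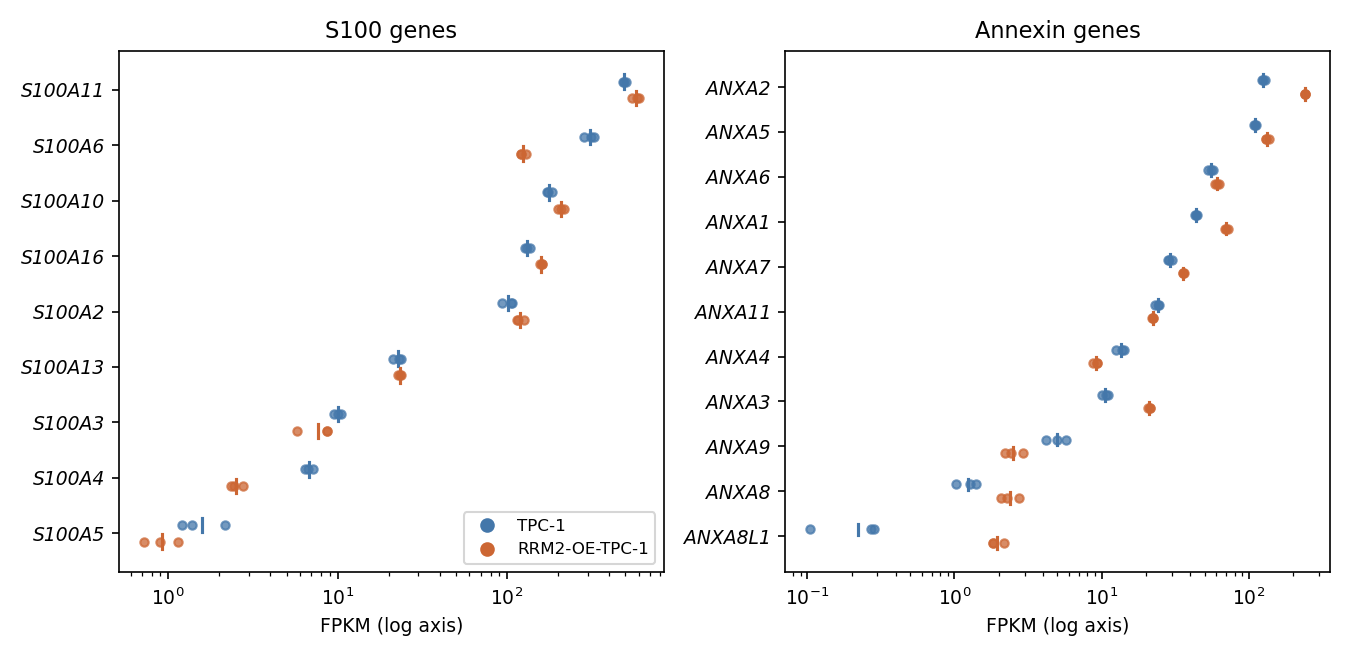
Level of each tested S100 gene (left) and annexin gene (right) in FPKM on a log axis, with 1 point per library, blue for TPC-1, orange for *RRM2*-OE-TPC-1, and a vertical tick at the mean of 3 libraries. *S100A6*, near 308 FPKM in TPC-1, lies near 124 FPKM in *RRM2*-OE-TPC-1, whereas *ANXA2* moves from a mean of 125 to 240.1 FPKM and the *S100A13* points lie on each other.

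FPKM are per length, so levels can also be compared between genes. In TPC-1 the S100 genes ranked *S100A11*, *S100A6*, *S100A10*, *S100A16*, *S100A2*, *S100A13*, *S100A3*, *S100A4* and *S100A5*, from a mean of 495 down to 1.58 FPKM, and no neighbors in that order overlapped in their 3 libraries. In *RRM2*-OE-TPC-1 *S100A6* had left the second place for the fourth, where its libraries overlapped with those of *S100A2*, and the other genes kept their order. The summed level of all S100 genes was 1257 ± 42.9 FPKM (SD, n = 3) in TPC-1 and 1223 ± 31.1 FPKM in *RRM2*-OE-TPC-1. Within this sum the share of *S100A6* was 24.5% ± 0.814 in TPC-1, against 10.1% ± 0.407 in *RRM2*-OE-TPC-1. For the annexins the sum was 418 ± 8.55 FPKM (SD, n = 3) in TPC-1 and 599 ± 6.58 FPKM in *RRM2*-OE-TPC-1, and *ANXA2* and *ANXA5* led in both. Here *ANXA1* passed *ANXA6* for the third place and *ANXA3* passed *ANXA4* for the seventh, and the libraries of *ANXA9* and *ANXA8*, and those of *ANXA8* and *ANXA8L1*, overlapped in *RRM2*-OE-TPC-1 but not in TPC-1. The lengths used are those of all exons of a gene, which differ from a single transcript by gene: 8824 bases for *ANXA2* against 1676 for its longest coding transcript, and 680 against 594 for *S100A11*. Ranks between genes therefore depend on that choice, and so do sums and shares over genes and their changes. Differences between strains within a gene do not. By two-sided exact permutation tests p was 0.1 for the annexin sum and for the *S100A6* share, the smallest that 3 against 3 libraries allow. After adjustment over 8 ratios and sums it was 0.133. For the S100 sum p was 0.4 by the same test, and 0.457 after adjustment.

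Among the tested members the largest falls were in *S100A6* and *S100A4*, which lie close together in the S100 cluster of chromosome 1. Their promoters are shown because both genes fell past both thresholds within the same cluster. Each is a window of 300 bases, from 250 before the start to 50 after it, taken from RefSeq on GRCh38.p14, at chr1:153535942-153536241 (minus strand) for *S100A6* and chr1:153545757-153546056 (minus strand) for *S100A4*. The RefSeq start of *S100A4* lies within the gene as the table spans it, 153543613 to 153550136, since that span includes longer transcripts. Capitals mark matches, on either strand, to TATAA, to the AP-1 motif TGANTCA or to the GC box GGGCGG.
S100A6: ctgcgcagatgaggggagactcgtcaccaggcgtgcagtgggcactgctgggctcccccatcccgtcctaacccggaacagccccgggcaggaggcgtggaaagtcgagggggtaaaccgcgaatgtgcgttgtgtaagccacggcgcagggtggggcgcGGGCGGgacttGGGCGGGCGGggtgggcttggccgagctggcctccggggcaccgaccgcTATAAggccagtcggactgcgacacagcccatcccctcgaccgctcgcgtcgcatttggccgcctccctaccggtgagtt
S100A4: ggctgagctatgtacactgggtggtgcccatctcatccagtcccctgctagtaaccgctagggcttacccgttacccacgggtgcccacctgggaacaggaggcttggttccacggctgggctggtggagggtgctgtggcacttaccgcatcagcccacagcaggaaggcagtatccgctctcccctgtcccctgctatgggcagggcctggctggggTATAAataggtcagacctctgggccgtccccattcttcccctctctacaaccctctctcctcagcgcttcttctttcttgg
Both windows hold 1 TATAA match, found in 20.4% of the 35116 promoter windows of the same length. The *S100A6* window also holds 3 GC box matches, of which the last 2 overlap each other, and the *S100A4* window none, against 45.0% of all windows with at least 1. Neither holds an AP-1 match, which 7.71% of all windows do. Of the 28 windows of the 19 tested members that have one in RefSeq, 6 held TATAA, 4 the AP-1 motif and 14 the GC box, and a match in these letters is a description only.

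*S100A6* (ENSG00000197956, chromosome 1, 153534599 to 153536244), calcyclin, is an S100 protein of dividing cells that binds the ubiquitin ligase adaptor CACYBP and annexins. It measured 325, 286 and 312 FPKM in TPC-1 and 121, 129 and 121 FPKM in *RRM2*-OE-TPC-1. Every TPC-1 library lay above every library of *RRM2*-OE-TPC-1, and the gap between the strains was far wider than the spread within them. The log2 fold change was -1.31 with a standard error of 0.0533 (2.49-fold lower, limma, adjusted p = 4.19e-07). An antisense gene, *BX470102.1*, shares 23 exon bases with *S100A6* at a mean of 0.651 FPKM, and whether strand was used in counting is not stated.

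*S100A4* (ENSG00000196154), also called metastasin, binds nonmuscle myosin and is best known for its tie to cell motility. Its libraries held 6.66, 6.38 and 7.16 FPKM in TPC-1 and 2.36, 2.45 and 2.76 FPKM in *RRM2*-OE-TPC-1. The groups were again far apart, at a level some way below that of *S100A6*. *S100A4* fell by 1.38 on the log2 scale (standard error 0.0796, 2.61-fold lower, limma, adjusted p = 2.30e-06).

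*S100A5* and *S100A3* lie between and beside them, and *S100A3* lies within the span of *S100A4*, with no exon bases shared. Both are S100 proteins with a narrow range of tissues, S100A3 being known from the hair cuticle. *S100A5* was at 1.38, 1.21 and 2.16 FPKM in TPC-1 and 1.15, 0.893 and 0.721 FPKM in *RRM2*-OE-TPC-1, from 9 to 27 reads in a library. It fell by 0.70 on the log2 scale (standard error 0.234, limma, adjusted p = 0.0273), and by 0.47 with an adjusted p of 0.0797 without library 3 of TPC-1, its highest. In turn *S100A3* was at 10.5, 9.59 and 10.1 FPKM in TPC-1 and 5.80, 8.62 and 8.61 FPKM in *RRM2*-OE-TPC-1, where library 1 stood below the others. It fell by 0.41 on the log2 scale (standard error 0.142, limma, adjusted p = 0.0328), and by 0.22 without that library. The falls of *S100A5* and *S100A3* were thus near the threshold, and each was lost with some single library left out, as given under the processing.

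The 4 genes that fell stand next to each other, from 153534599 to 153550136 on chromosome 1 (GRCh38), a stretch of 15.5 kb that holds 5 genes of the table and 4 tested ones. By the upstream ends of the full gene spans, the next S100 gene, *S100A2*, starts 31.6 kb from the start of *S100A6* and rose. *S100A16*, at 76.9 kb, rose as well, and *S100A13*, at 95.1 kb, did not pass. Between *S100A2* and *S100A16*, the long noncoding RNA *BX470102.2* differed by 0.11 on the log2 scale with a 95% interval from -0.28 to 0.51 (limma, adjusted p = 0.583). The sign of the difference thus changed between *S100A3* and *S100A2*.

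**Figure D2:**
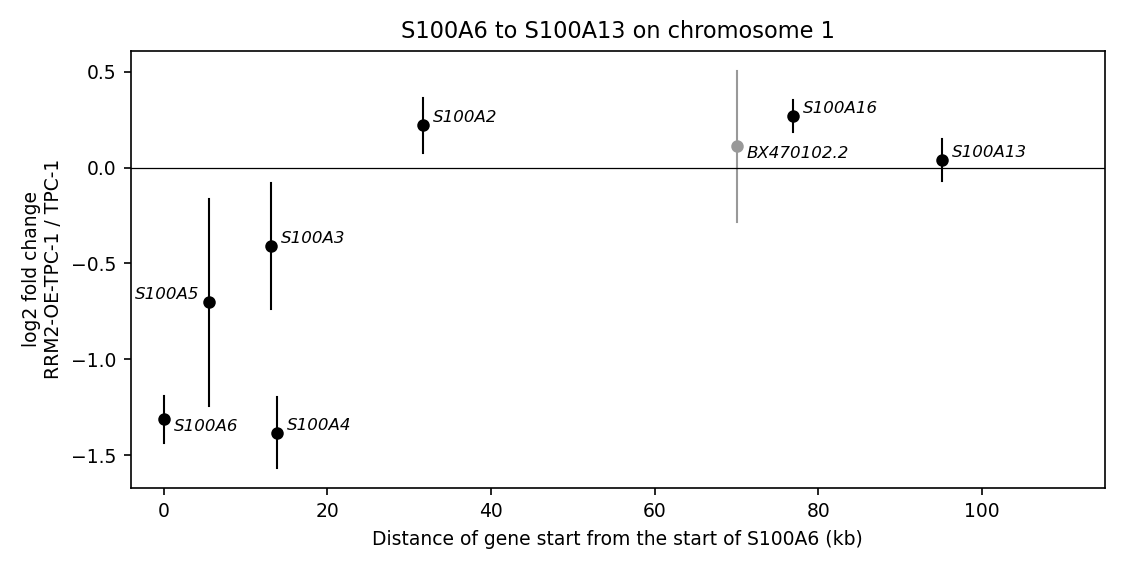
log2 fold change of *RRM2*-OE-TPC-1 over TPC-1 (vertical axis) for the tested genes from *S100A6* to *S100A13*, with 95% intervals. Genes are placed by the distance in kb (horizontal axis) of the upstream end of their full span from that of *S100A6*. These ends can differ from the RefSeq starts of the promoter windows. Black points are S100 genes and the gray point is a long noncoding RNA. The 4 points within 15 kb lie below 0, and *S100A2* and *S100A16* lie above it.

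Between the outermost S100 genes of the cluster, from 151982915 to 153632039, the table holds 73 other genes, among them those of the epidermal differentiation complex, and 53 of these were at 0 in every library. Of the 5 that were tested, 3 rose and 1 fell, against 34.9% and 32.7% of all tested genes. *FLG*, filaggrin, the fused-type S100 protein that bundles keratins in the skin, measured 10.8, 11.4 and 10.6 FPKM in TPC-1 and 24.5, 25.1 and 26.4 FPKM in *RRM2*-OE-TPC-1 (log2 fold change 1.21, limma, adjusted p = 3.23e-07). *HRNR*, hornerin, of the same fused type, was at a mean of 0.390 FPKM in TPC-1 and 1.01 FPKM in *RRM2*-OE-TPC-1 (log2 fold change 1.18, adjusted p = 4.28e-04), and it too was tested only through *RRM2*-OE-TPC-1, its TPC-1 libraries all being under the minimum. The pseudogene *PUDPP2* fell from a mean of 4.76 to 1.57 FPKM (log2 fold change -1.57, limma, adjusted p = 8.73e-05). Out of 33 listed fused-type S100 and epidermal differentiation genes, 21 were at 0 in every library and 3 were tested. Of these 3, 2 rose and none fell, against the same 34.9% and 32.7% of all tested genes. *FLG* is also 1 of 7 keratinocyte markers, of which *KRT1*, *LOR* and *IVL* were at 0 in all libraries. Nearly all of the sum of these markers, 20.6 to 22.1 FPKM in TPC-1 and 35.7 to 38.7 FPKM in *RRM2*-OE-TPC-1, came from *FLG* and *KRT10*.

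The most abundant member was *S100A11*, the partner of annexin A1, with 508, 490.5 and 485 FPKM in TPC-1 and 545, 585 and 602 FPKM in *RRM2*-OE-TPC-1. It rose by 0.22 on the log2 scale (standard error 0.0489, limma, adjusted p = 0.00411), with no overlap between the strains. *S100A10*, the partner of annexin A2, which holds its open shape without calcium, had 184, 176 and 173 FPKM in TPC-1 and 201, 207 and 216 FPKM in *RRM2*-OE-TPC-1, a rise of 0.23 (standard error 0.0414, adjusted p = 0.00139). Both of these partners of annexins were thus slightly higher. *S100A16*, an S100 protein found in most tissues, rose from 137, 128 and 132 FPKM to 162, 156 and 160.0 FPKM, by 0.27 on the log2 scale (standard error 0.0366, limma, adjusted p = 2.73e-04). *S100A2*, an S100 protein of epithelial cells, held 105, 93.5 and 108 FPKM in TPC-1 and 126, 116 and 114 FPKM in *RRM2*-OE-TPC-1. Its groups came closest among the 4 that rose, and the log2 fold change was 0.22 (standard error 0.0619, limma, adjusted p = 0.0131). These 4 rises, from 1.17-fold to 1.21-fold, are small beside the falls of *S100A6* and *S100A4*.

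*S100A13*, which helps release FGF1 from cells, was at 21.2, 23.1 and 23.6 FPKM in TPC-1 and 23.8, 22.7 and 23.4 FPKM in *RRM2*-OE-TPC-1. It is the single tested member whose groups overlapped. The log2 fold change of 0.042 had a 95% interval from -0.068 to 0.15 (limma, adjusted p = 0.46). *S100A13* shares 235 exon bases with *S100A1* on the opposite strand and 9.29% of its 150-base windows with *AL162258.1*, so reads of these genes may be mixed.

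**Figure D3:**
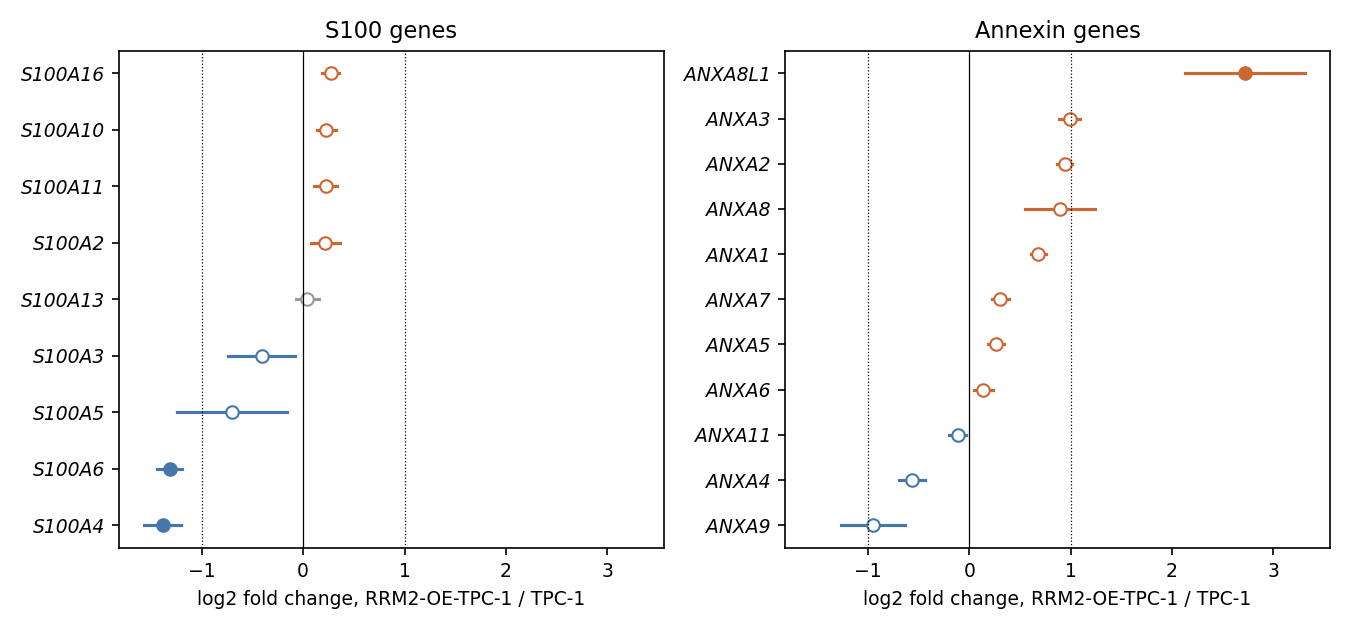
log2 fold change of *RRM2*-OE-TPC-1 over TPC-1 for each tested S100 gene (left) and annexin gene (right), with 95% intervals. Orange marks genes that rose, blue those that fell and gray the gene that did not pass, filled circles also have a log2 fold change of at least 1 in size, and dotted lines mark that size. *S100A4* and *S100A6* are filled on the low side and *ANXA8L1* on the high side.

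Among the annexins, *ANXA2* had the highest level and one of the largest rises. Its promoter is shown for that reason, at chr15:60397937-60398236 (minus strand, RefSeq, GRCh38.p14), with capitals as above, beside that of *ANXA8L1* at chr10:46375526-46375825 (plus strand), the member with the largest log2 fold change.
ANXA2: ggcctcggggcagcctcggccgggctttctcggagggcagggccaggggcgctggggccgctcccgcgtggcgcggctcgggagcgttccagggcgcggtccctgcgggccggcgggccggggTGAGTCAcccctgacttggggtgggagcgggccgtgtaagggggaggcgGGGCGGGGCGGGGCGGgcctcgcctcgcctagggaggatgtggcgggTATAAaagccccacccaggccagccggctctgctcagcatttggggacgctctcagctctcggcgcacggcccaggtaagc
ANXA8L1: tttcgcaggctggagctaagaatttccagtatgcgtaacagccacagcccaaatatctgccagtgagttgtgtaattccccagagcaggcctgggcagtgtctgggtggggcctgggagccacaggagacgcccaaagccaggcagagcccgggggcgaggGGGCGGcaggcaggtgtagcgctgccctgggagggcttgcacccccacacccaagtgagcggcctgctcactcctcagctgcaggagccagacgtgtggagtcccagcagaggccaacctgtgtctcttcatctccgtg
The *ANXA2* window holds 1 TATAA match, 1 AP-1 match and 3 GC boxes, and the *ANXA8L1* window holds 1 GC box and neither of the others.

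Annexin A2 links membranes to actin and, with S100A10, offers a docking site for plasminogen at the cell surface. *ANXA2* (ENSG00000182718, chromosome 15, 60347134 to 60402883) measured 128, 122 and 125 FPKM in TPC-1 and 240.8, 239.6 and 240.0 FPKM in *RRM2*-OE-TPC-1. Spread within the strains was small, at SDs of 2.98 and 0.603 FPKM, and the strains lay far apart. *ANXA2* rose by 0.94 on the log2 scale (standard error 0.0322, 1.92-fold, limma, adjusted p = 1.98e-07). *S100A10* rose by less, and the ratio of *ANXA2* to *S100A10* in FPKM was 0.704 ± 0.0152 (SD, n = 3) in TPC-1 against 1.15 ± 0.0440 in *RRM2*-OE-TPC-1. The size of this ratio depends on the lengths used, 8824 and 1543 bases, while its relative change between the strains does not. By a two-sided exact permutation test p was 0.1, the smallest that 3 against 3 libraries allow, and 0.133 after adjustment over 8 ratios and sums.

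A processed copy of this gene, *ANXA2P2* on chromosome 9, was listed at 59.8, 57.2 and 64.8 FPKM in TPC-1 and 130.3, 112 and 107 FPKM in *RRM2*-OE-TPC-1. Of its 871 windows of 150 bases, 13.2% are found exactly in *ANXA2*, so how reads were split between the copies is uncertain. In reads, *ANXA2P2* had 1018, 981 and 1054 in TPC-1, against 18865, 18130 and 17527 for *ANXA2*. The size of their FPKM ratio depends on the lengths used, 1020 bases for *ANXA2P2* and 8824 for *ANXA2*. That ratio of *ANXA2P2* to *ANXA2* was 0.485 ± 0.0305 (SD, n = 3) in TPC-1 against 0.485 ± 0.0495 in *RRM2*-OE-TPC-1. The log2 fold change of the summed copies was 0.94, as for *ANXA2* alone.

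*ANXA8* and *ANXA8L1* are near-identical copies on chromosome 10, of an annexin found in some epithelia. *ANXA8L1* (ENSG00000264230, chromosome 10, 46375627 to 46391784) was at 0.105, 0.270 and 0.285 FPKM in TPC-1, from 5, 13 and 13 reads, and at 2.18, 1.82 and 1.82 FPKM in *RRM2*-OE-TPC-1, from 90, 89 and 83 reads. All 3 TPC-1 libraries lay under the minimum of 0.5 FPKM, so the gene was tested only because it is high in *RRM2*-OE-TPC-1, which tilts the test to a rise. It rose by 2.72 on the log2 scale (standard error 0.255, limma, adjusted p = 3.24e-05), a size that depends on the added constant at so low a level: 1.27 with 1 and 3.20 with 0.01. *ANXA8* measured 1.40, 1.02 and 1.27 FPKM in TPC-1 and 2.75, 2.29 and 2.06 FPKM in *RRM2*-OE-TPC-1, and rose by 0.89 (standard error 0.149, limma, adjusted p = 8.90e-04). Reads of the copies may be mixed, since 53.8% of the windows of *ANXA8L1* and 41.2% of those of *ANXA8* are shared with each other or with unnamed genes of the region. Their sum, chosen as a check after the values were seen, was 1.45 ± 0.140 FPKM (SD, n = 3) in TPC-1 and 4.31 ± 0.550 FPKM in *RRM2*-OE-TPC-1, a log2 fold change of 1.50 (limma, adjusted p = 1.05e-05).

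*ANXA3*, an annexin known from neutrophils and from several carcinomas, was at 11.0, 10.04 and 10.7 FPKM in TPC-1 and 21.2, 20.8 and 21.2 FPKM in *RRM2*-OE-TPC-1. It rose by 0.99 on the log2 scale (standard error 0.0438, 1.98-fold, limma, adjusted p = 6.53e-07), just under the size asked for. *ANXA1*, which dampens inflammation through formyl peptide receptors, had 43.1, 44.7 and 43.7 FPKM in TPC-1 and 70.0, 69.2 and 71.8 FPKM in *RRM2*-OE-TPC-1, a rise of 0.68 (standard error 0.0317, limma, adjusted p = 8.33e-07). Neither gene overlapped between the strains. *ANXA5*, known as a stain for phosphatidylserine on dying cells, held 112, 108 and 111 FPKM in TPC-1 and 137, 129.9 and 132 FPKM in *RRM2*-OE-TPC-1 and rose by 0.27 (standard error 0.0340, limma, adjusted p = 1.94e-04). *ANXA7*, with its long amino-terminal tail, rose by 0.31 (limma, adjusted p = 1.52e-04) and *ANXA6*, whose annexin core is duplicated, by 0.14 (adjusted p = 0.0176).

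The annexins that fell were *ANXA9*, *ANXA4* and *ANXA11*. *ANXA9*, an unusual annexin that has lost its calcium sites and also lies on the long arm of chromosome 1, from 150982017 to 150995634, was at 4.99, 5.70 and 4.16 FPKM in TPC-1 and 2.20, 2.91 and 2.41 FPKM in *RRM2*-OE-TPC-1. It fell by 0.95 on the log2 scale (standard error 0.137, limma, adjusted p = 3.82e-04), near the size asked for. *ANXA4*, an annexin of epithelial membranes, held 14.1, 13.8 and 12.6 FPKM in TPC-1 and 9.24, 9.32 and 8.74 FPKM in *RRM2*-OE-TPC-1 and fell by 0.56 (standard error 0.0553, limma, adjusted p = 4.31e-05). *ANXA11*, which ties RNA granules to lysosomes, fell by 0.11 (standard error 0.0361, adjusted p = 0.0243). By their level in TPC-1, the 5 highest annexins, *ANXA2*, *ANXA5*, *ANXA6*, *ANXA1* and *ANXA7*, all rose, against 34.9% of all tested genes. The rise of *ANXA6* was lost in some alternatives, as given under the processing. Of the other 6, 3 fell and *ANXA3*, *ANXA8* and *ANXA8L1* rose, the last tested only through *RRM2*-OE-TPC-1. A link between level and direction was not tested.

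The other 15 members did not reach the minimum and were not tested. *S100A12*, *S100A7*, *S100A7A*, *S100A7L2*, *S100G* and *S100B* were at 0 in every library. *S100A8*, which with S100A9 forms the calprotectin of neutrophils, had 7, 6 and 10 reads in TPC-1 and none in *RRM2*-OE-TPC-1. Against a floor of 3 reads in that group, and with the TPC-1 reads taken as counted, *S100A8* was 7.37-fold lower. *S100A9* had 5 reads in either group. Of 8 myeloid markers 6 were under 0.1 FPKM in every library, with *LYZ*, *FCGR3A* and *MPO* at 0, and they summed to 0.431 to 0.482 FPKM in TPC-1 and 0.238 to 0.433 FPKM in *RRM2*-OE-TPC-1, so the sums overlapped. The highest of them, *CD14*, did not overlap, at 0.349, 0.410 and 0.399 FPKM in TPC-1 and 0.183, 0.155 and 0.0998 FPKM in *RRM2*-OE-TPC-1. *ITGAM* went the other way, also without overlap, at 0, 0.0105 and 0.0221 FPKM in TPC-1 and 0.0973, 0.0513 and 0.0662 FPKM in *RRM2*-OE-TPC-1. The part of these markers in the *S100A8* reads was not tested.

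*ANXA2R* had 10, 14 and 12 reads in TPC-1 and 4, 4 and 5 in *RRM2*-OE-TPC-1, without overlap. *S100A1*, the S100 protein of heart and muscle, had 82 reads over the TPC-1 libraries and 57 over those of *RRM2*-OE-TPC-1. For *S100A14* the totals were 15 and 24 reads, for *ANXA10* 8 and 9, and for *ANXA13* 2 and 10. *S100P* and *S100Z* each had a single read in all, so these genes lay at the limit of the depth.

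The receptors through which secreted S100 proteins and annexin A1 act moved both ways. Of 15 receptor and adaptor genes, 7 were tested, 3 rose and 3 fell, with a median log2 fold change of -0.057. Over all tested genes 34.9% rose and 32.7% fell, so these counts do not set the list apart. *MCAM*, an adhesion molecule that binds S100A8 and S100A9, measured 12.6, 12.2 and 12.5 FPKM in TPC-1 and 27.9, 28.2 and 28.1 FPKM in *RRM2*-OE-TPC-1 and rose by 1.17 (standard error 0.0332, limma, adjusted p = 8.71e-08). *FPR1*, a formyl peptide receptor that annexin A1 engages, was at 8.02, 7.38 and 7.21 FPKM in TPC-1 and 2.16, 2.36 and 2.37 FPKM in *RRM2*-OE-TPC-1, a fall of 1.67 on the log2 scale (standard error 0.0707, limma, adjusted p = 5.21e-07). Thus *ANXA1* was higher and *FPR1* lower in the same libraries. Of the other formyl peptide receptors listed, *FPR2* was not tested, at means of 0.050 and 0.018 FPKM, and *FPR3* was at 0 in every library. The related adhesion molecule *ALCAM* rose from a mean of 81.0 to 125 FPKM (log2 fold change 0.63, adjusted p = 2.55e-06), and *BSG*, basigin, a receptor of S100A9, was at 168 and 162 FPKM (log2 fold change -0.057, adjusted p = 0.388) with overlapping libraries. *AGER*, which encodes RAGE and is named here after its values were seen, fell by 0.87 (limma, adjusted p = 0.0014) at means of 2.00 and 1.05 FPKM.

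**Figure D4:**
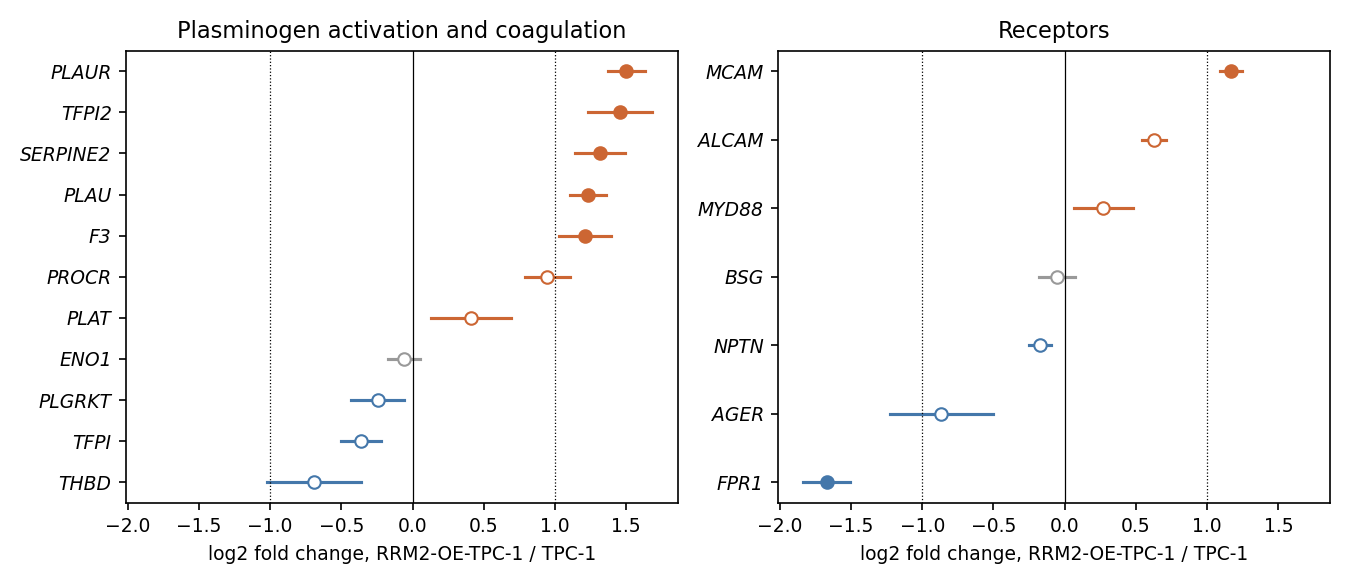
log2 fold change of *RRM2*-OE-TPC-1 over TPC-1 for the tested genes of plasminogen activation and coagulation (left) and of the receptors of secreted S100 and annexin proteins (right), with 95% intervals and the same marks as for the members. On the left 5 genes are filled on the high side and none on the low side, and on the right *MCAM* and *FPR1* are filled on opposite sides.

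The pair of S100A10 and annexin A2 acts on plasminogen. Of 15 listed genes of plasminogen activation and of the coagulation steps next to it, the latter including *F3*, *THBD*, *TFPI* and *PROCR*, 11 were tested, 7 rose and 3 fell, with a median log2 fold change of 0.95 against 0.011 over all tested genes. Both thresholds were passed by 5 of them in the upward direction, *F3* among them, and by none downward, against 4.48% and 6.97% of all tested genes. By adjusted p alone, 34.9% of all tested genes rose and 32.7% fell. The list was written with earlier results of these data known, so its counts are no independent support for a rise. *PLAU*, urokinase, the protease that activates plasminogen, measured 64.2, 55.3 and 59.2 FPKM in TPC-1 and 144, 136 and 139 FPKM in *RRM2*-OE-TPC-1, a rise of 1.23 (standard error 0.0546, limma, adjusted p = 6.66e-07). Its receptor *PLAUR* had 4.54, 4.66 and 4.41 FPKM in TPC-1 and 13.7, 13.1 and 12.2 FPKM in *RRM2*-OE-TPC-1 and rose by 1.50 (standard error 0.0561, limma, adjusted p = 2.88e-07). Along with them rose some inhibitors of proteases, *SERPINE2* from a mean of 1.76 to 4.53 FPKM (log2 fold change 1.32, limma, adjusted p = 2.44e-06) and *TFPI2*, an inhibitor of plasmin, from 5.31 to 14.7 FPKM (log2 fold change 1.46, adjusted p = 5.24e-06). Other inhibitors, named here after their values were seen, went the other way. *TFPI* fell by 0.36 (limma, adjusted p = 9.40e-04). *SERPINF2*, under the minimum and not tested, had 8, 15 and 14 reads in TPC-1 and 0, 2 and 2 in *RRM2*-OE-TPC-1. *F3*, tissue factor, the starter of coagulation, is named here after its values were seen and rose from 1.70 to 4.06 FPKM (log2 fold change 1.21, limma, adjusted p = 4.25e-06). *ENO1*, enolase, a glycolytic enzyme that also binds plasminogen, was at 826 and 792 FPKM (log2 fold change -0.059, limma, adjusted p = 0.303), and its libraries overlapped.

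Of 39 genes in the table whose proteins bind members directly, 33 were tested, 19 rose and 8 fell, with a median log2 fold change of 0.17, against 34.9% and 32.7% of all tested genes that rose and fell. *CACYBP*, the binding partner of calcyclin, measured 19.0, 17.6 and 18.6 FPKM in TPC-1 and 40.5, 38.6 and 37.1 FPKM in *RRM2*-OE-TPC-1 and rose by 1.07 (standard error 0.0454, limma, adjusted p = 5.35e-07). With *S100A6* lower, the FPKM ratio of *S100A6* to *CACYBP* was 16.7 ± 0.458 (SD, n = 3) in TPC-1 against 3.20 ± 0.187 in *RRM2*-OE-TPC-1 (two-sided exact permutation test, p = 0.1, adjusted 0.133). The size of this ratio, too, depends on the gene lengths used. The partner and the S100 protein thus moved in opposite directions. *FGF1*, a growth factor whose release needs S100A13, rose from 0.693, 0.778 and 0.892 FPKM in TPC-1 to 6.11, 6.27 and 6.85 FPKM in *RRM2*-OE-TPC-1, by 2.88 (standard error 0.105, limma, adjusted p = 2.66e-07), while *S100A13* itself did not pass. *MDM2*, a ubiquitin ligase bound by several S100 proteins, rose by 2.17 (limma, adjusted p = 5.11e-08) and *PLA2G4A*, the phospholipase held by annexin A1 and S100A10, by 1.62 (adjusted p = 0.00266). *PLA2G4A* was under the minimum in the 3 TPC-1 libraries, at 0.208, 0.0620 and 0.306 FPKM, and was tested only through *RRM2*-OE-TPC-1. The potassium channel gene *KCNK3*, whose protein S100A10 carries to the membrane, fell from 39.9, 36.2 and 38.9 FPKM to 12.8, 13.6 and 13.2 FPKM, by 1.53 on the log2 scale (standard error 0.0464, limma, adjusted p = 1.12e-07).

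The most abundant partners changed less. *MYH9*, the nonmuscle myosin heavy chain that S100A4 binds, was at a mean of 273 FPKM in TPC-1 and 383 FPKM in *RRM2*-OE-TPC-1 (log2 fold change 0.49, adjusted p = 1.65e-05). *AHNAK*, the giant scaffold bound by annexin A2 and S100A10, was at 149 and 193 FPKM (log2 fold change 0.37, adjusted p = 6.86e-05) and *EZR*, ezrin, a linker of membrane and actin, at 79.2 and 146 FPKM (log2 fold change 0.89, adjusted p = 8.38e-07). *RACK1*, a ribosomal scaffold protein, fell by 0.23 (limma, adjusted p = 5.35e-04).

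Other calcium-binding families were counted beside the members. Of 72 other EF-hand genes, 40 were tested, 18 rose and 12 fell, with a median of 0.15, and *EFHD2*, swiprosin, rose by 1.47 (limma, adjusted p = 6.79e-08) while *KCNIP1*, a potassium channel subunit, fell by 1.88 (adjusted p = 3.05e-06). Of 43 other calcium-dependent membrane binders, such as synaptotagmins and ferlins, 18 were tested, 8 rose and 7 fell, with a median of 0.10. There *SYTL3* rose by 1.44 (limma, adjusted p = 1.58e-05), *SYT12* fell by 2.65 (adjusted p = 8.24e-07), being above the minimum in TPC-1 alone, and *FER1L4*, a transcribed ferlin pseudogene, fell by 2.71 (adjusted p = 1.15e-07). Over the 107 tested genes of all lists together, 54 rose and 32 fell, against 34.9% and 32.7% of all tested genes, and 14 were higher and 5 lower by both thresholds, against 4.48% and 6.97%. All lists were written with earlier results of these data known, so these counts are no independent support for a rise.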

How the data were processed

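mRNA of 3 TPC-1 and 3 *RRM2*-OE-TPC-1 libraries was sequenced. Per the labels, reads were aligned with HISAT2 2.0.5 to GRCh38.p14 and counted with featureCounts 1.5.0, and the authors deposited FPKM, the counts divided by gene length and depth. The depth recovered from the values followed size factors (median ratios of reads to gene means), at scaled ratios of 0.999 to 1.001. Divided by the reads on genes, it was 1.03 to 1.05 in TPC-1 and 0.997 to 1.01 in *RRM2*-OE-TPC-1. The alternative with size factors thus nearly repeats the main scaling, on which small changes rest. The labels describe ribosomal RNA removal, RNase R digestion and a strand-marking kit, whereas the methods describe poly(A) selection. Every one of the 58735 gene identifiers, with its position, was found in GENCODE 29 on GRCh38. FPKM times length gave whole reads for 100% of values within 0.01 reads. Floors on reads cover counting error only, and only in the group without reads, whereas the 95% intervals are those of limma and rest on the spread between libraries.

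log2(FPKM + 0.1) of the 13621 genes with at least 0.5 FPKM and 10 reads in 3 libraries was fitted with limma 3.58.1 in R 4.3.3 (lmFit, eBayes with trend) and adjusted by Benjamini-Hochberg. The procedure was run on simulated data with large changes and a single fixed dispersion for all genes, which does not bear on the small changes reported here. Ratios were compared by exact permutation tests in scipy 1.17.1. Replicate numbers did not pair the libraries, whose same-number correlations were -0.011, -0.0060 and -0.055, so no block was used.

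The members and the 6 partner lists, written by hand, were chosen with earlier results of these data known. Named were all members, up to 4 genes per list and direction of the largest change past both thresholds, and in 3 lists also genes at 100 FPKM or more. Some genes of the lists are not reported here and were left out of their counts. Promoters came from RefSeq, where 31 members had a window. *ANXA8* had none there. Alternatives covered pseudocount, filter, scaling, voom on recovered reads, a replicate block, each library left out, protein-coding genes alone and a test of change above 1.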

Additional observations from a re-analysis of the deposited data

How the results depend on the processing

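*S100A6* and *S100A4* stayed called lower and *ANXA8L1* higher in every alternative run. Without TPC-1 library 1, 2 members were called higher (*ANXA3* at 1.02 joined), so this count ran from 1 to 2 over the libraries left out. Without TPC-1 library 3, 4 members passed the adjusted p downward in place of 7, and *ANXA9* passed both thresholds, as it did without *RRM2*-OE-TPC-1 library 2 and with library totals. The 7 lost *S100A3* (adjusted p = 0.0712), *S100A5* and *ANXA11* there. Leaving out a library moved *S100A3* between -0.50 and -0.22, *S100A5* between -0.86 and -0.47 and *ANXA11* between -0.14 and -0.10 (log2). *S100A3* was lost without each TPC-1 library and with no filter. *S100A5* was lost with no filter, with voom (adjusted p = 0.0629) and without *RRM2*-OE-TPC-1 library 2 or 3, and *ANXA11* without TPC-1 library 1 or those same libraries. *ANXA6* was lost with library totals (0.080, limma, adjusted p = 0.116), without TPC-1 library 2 and without *RRM2*-OE-TPC-1 library 1, and *S100A2* with no filter (adjusted p = 0.0510), which also called *S100A8* lower. *S100A13* turned to -0.016 with library totals and to -0.0052 without TPC-1 library 1, from -0.0052 to 0.073 over the libraries left out. In the test of change above 1, the calls among the 1q21 neighbors fell from 3 to 1, among direct partners from 5 to 3 and over all genes from 1560 to 618, and an added constant of 1 gave 716. The fused-type list had 1 call in place of 2 in that test, with that constant and with a minimum of 1 FPKM. Library totals moved the median of all genes to -0.045. With the replicate block 1 member was called higher and 2 lower, and no member's call changed. Where a call was lost, the cause was not tested beyond the fewer libraries or added low genes of the alternative. Members under the minimum are limited by depth.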
